A study of Mus musculus with 16 samples.

Results

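Avpr1a encodes the V1a vasopressin receptor of the mouse. It was described here in gene expression arrays of dorsal skin from mice with a conditional deletion of Gab1 and from controls. It is 1 of 16593 genes on the array, and all probes whose gene symbol on the platform is Avpr1a were taken, which are 2 of the 25697 probes. The gene was chosen by its measured difference between mutant and control arrays, so its levels in the groups are a description, without a test.

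The arrays comprised 7 of mice labelled K14-cre; Gab1fl and 9 of mice labelled control. Animals of both groups had a mixed C57/BL6;129Ola background and were 15 days old. K14-cre drives Cre recombinase from the promoter of a basal keratinocyte keratin, which most dermal cells do not use. The labels do not state the full genotype of the controls or whether a sample is 1 animal or a pool. The tissue label of every array is dorsal skin, whereas the design text of the series describes sorted cells positive for the integrin alpha 6. Markers of dermis and of immune cells were above background as well as those of keratinocytes. All 6 basal keratinocyte markers and all 6 dermal fibroblast markers were measured, among them Krt14, a keratin of basal cells, at 15.94 and 16.02 in the mutant and 15.99 to 16.04 in the control on the log2 scale, and Dcn, a collagen-binding proteoglycan, at 15.12 and 14.13 in the mutant and 14.33 to 14.63 in the control.

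The 16 arrays were not 16 separate samples. Within each group, arrays joined by a correlation above 0.99 formed 5 sets, called sources here, with 2 mutant sources of 3 and 4 arrays and 3 control sources of 3 arrays each. Arrays of 1 source correlated at 0.994 to 0.996, those of different sources at 0.935 to 0.936 among mutants and 0.961 to 0.986 among controls, and mutant with control arrays at 0.933 to 0.964. Means, SD and tests therefore run over the 5 sources, and nothing in the labels says that these are separate animals, so p-values measure only the spread between these sources, which may be technical. The Y-linked Eif2s3y stood at 9.14 and 4.78 in mutant sources 1 and 2 and at 10.41 to 10.74 in the control sources. It was above background on 3 of 7 mutant and 9 of 9 control arrays. Kdm5d, also Y-linked, stood at 5.73 and 4.96 in the mutant sources and at 7.02 to 7.13 in the control sources. It was above background on 1 of 7 mutant and 9 of 9 control arrays. Y-linked signal thus differed between the groups and, for Eif2s3y, also between the mutant sources. The part of sex in other differences was not tested. Xist, the transcript of the inactive X chromosome, was detected on all 16 arrays. It stood at 10.43 and 11.49 in mutant sources 1 and 2 and at 9.93 to 10.50 in the control sources. The control sources and mutant source 1 thus held both Xist and Eif2s3y signal. The detected probes numbered 13406 to 14636 per array, at a detection p below 0.05.

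The V1a receptor is a G protein-coupled receptor for arginine vasopressin. It acts through Gq proteins and phospholipase C, which releases calcium from intracellular stores and activates protein kinase C. It is best known for the contraction of vascular smooth muscle, for glycogen breakdown in the liver and for effects on social behaviour in the brain, whereas water retention in the kidney runs through the V2 receptor.

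Avpr1a lies on mouse chromosome 10. Both probes were annotated with the same RefSeq transcript record of the gene. The region around its annotated start, from 250 bases before it into the first 50 bases of the transcript, is shown because it is the sequence that places the measured gene in the genome (RefSeq, GRCm38.p6, chr10:122448249-122448548, + strand). Capitals mark the letters TATAAA.

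Avpr1a promoter: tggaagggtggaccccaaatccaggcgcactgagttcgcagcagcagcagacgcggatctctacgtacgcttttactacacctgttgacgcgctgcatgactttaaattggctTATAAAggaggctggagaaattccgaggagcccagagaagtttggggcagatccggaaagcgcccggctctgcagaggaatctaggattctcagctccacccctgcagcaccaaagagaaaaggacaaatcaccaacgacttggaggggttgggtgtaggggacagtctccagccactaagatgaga

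Of 5 motifs searched on both strands, 3 were found in this window. The TATA box letters TATAAA lay 137 to 132 bases before the annotated start and are present in 13.6% of the 32851 promoters of the same length. The letters CCAAT lay 144 to 140 bases before it (37.4% of promoters) and the E box letters CANNTG 172 to 167 bases before it (72.3%). None of these matches overlapped another. GGGCGG and the AP-1 letters TGANTCA, present in 35.7% and 7.81% of promoters, were not in this window. The arrays do not measure the promoter, and these matches are a description of letters alone.

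Gab1, the docking protein deleted in the mutant, was read by 1 probe. Its signal was 11.34 and 11.97 in the mutant sources and 12.68 to 12.69 in the control sources, which puts the mutant mean at 48.9% of the control. The mutant minus control difference was -1.03 (SE 0.21, limma adjusted p = 0.239), with no overlap between the groups. No label says whether this probe lies in the deleted part, so it may not check the deletion.

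Avpr1a signal was lower on every mutant array than on any control array, with both probes. The brighter probe had raw signals of 1253 at the lowest, 1331 at the median and 1470 at the highest of the 7 mutant arrays, against 4833, 5673 and 6621 on the 9 control arrays. The dimmer probe had raw signals of 305.5, 339.7 and 379.4 on the mutant arrays, against 875.3, 1051 and 1263 on the control arrays. The groups did not overlap before any normalization, and the lowest control array exceeded the highest mutant array 3.29-fold for the brighter probe and 2.31-fold for the dimmer one.

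Both probes were detected on all 7 mutant and all 9 control arrays, each time at a deposited detection p of 0. The low mutant values are therefore measured levels and not the background of the array.

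The groups did not overlap after background correction and quantile normalization either. The brighter probe read 10.01, 10.28 and 10.49 (lowest, median, highest) on the mutant arrays and 12.38, 12.50 and 12.54 on the control arrays on the log2 scale. The dimmer probe read 7.51, 7.71 and 7.95 on the mutant arrays and 9.79, 9.87 and 10.02 on the control arrays. A gap of 1.89 and of 1.83 log2 units separated the groups for the brighter and the dimmer probe.

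By source, the brighter probe was at 10.08 and 10.36 in the mutant and at 12.49, 12.50 and 12.44 in the control. Its mean was 10.22 ± 0.20 in the mutant (SD, n = 2 sources) and 12.48 ± 0.03 in the control (SD, n = 3 sources), a log2 difference of -2.26, or 20.9% of the control signal. The dimmer probe was at 7.64 and 7.79 in the mutant sources and at 9.85, 9.95 and 9.89 in the control sources, with means of 7.71 ± 0.11 and 9.90 ± 0.05, a difference of -2.18 and 22.0% of the control signal. In both probes mutant source 1 was the lower of the mutant pair, as it was for Gab1. In bulk RNA, fewer cells of a type and less RNA per cell cannot be told apart.

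**Figure D1:**
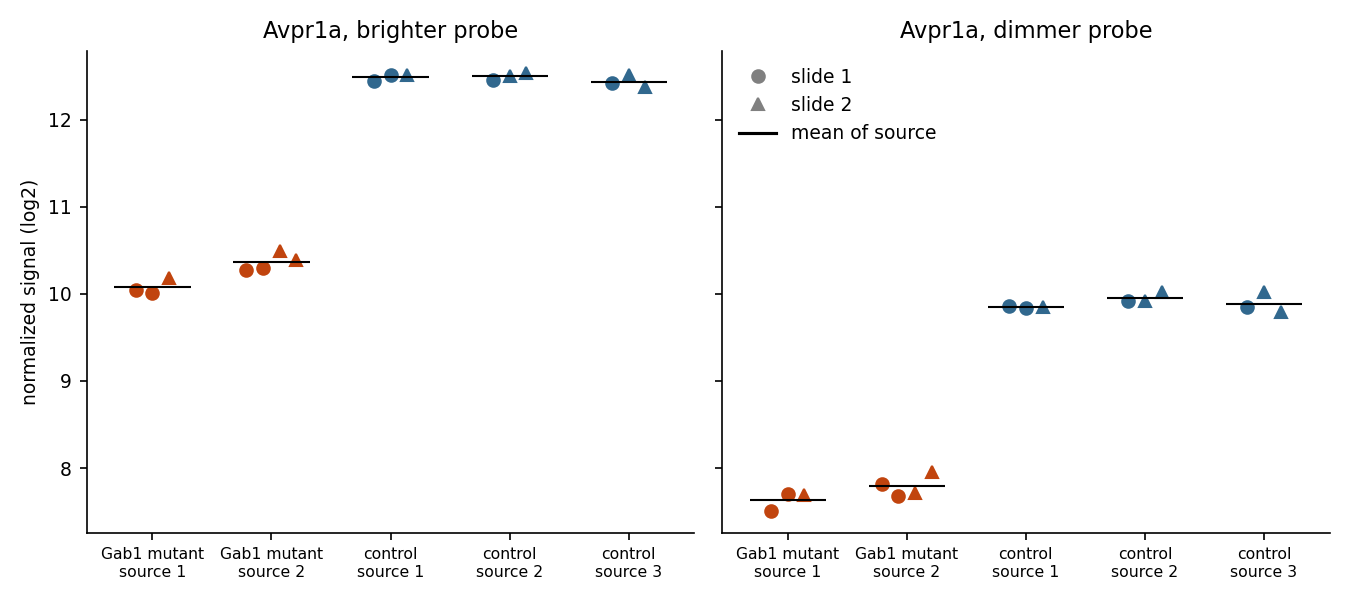
Avpr1a signal (log2, after background correction and quantile normalization) on each array, by source, for the brighter probe (left) and the dimmer probe (right). Points are arrays, circles for slide 1 and triangles for slide 2, and lines are source means. The mutant arrays lie at 10.01 to 10.49 and 7.51 to 7.95, the control arrays at 12.38 to 12.54 and 9.79 to 10.02.

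The spread of Avpr1a among the control sources was small. Their SD was 0.034 for the brighter and 0.050 for the dimmer probe, against a median of 0.163 over all 14504 tested probes. A smaller control SD was found in 4.52% and 9.20% of tested probes. The SD between arrays of 1 source was 0.074 and 0.099, against a median of 0.108, so the control sources differed by no more than repeated arrays of 1 source did. The mutant sources differed by 0.29 with the brighter and 0.16 with the dimmer probe. Small spread within groups also favours the choice of a gene by its difference, so these values are a description.

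In the control arrays Avpr1a was among the brighter signals of the skin. The brighter probe ranked between 1202 and 1355 of the 25697 probes on the control arrays, with 4.67% to 5.27% of probes above it, and the dimmer probe between 5179 and 5673. On the mutant arrays the brighter probe ranked between 4240 and 5214 and the dimmer between 9395 and 10306. A probe's brightness also depends on its own sequence, as the pair of Avpr1a probes shows, and a rank is no measure of the amount of transcript relative to other genes. Among all tested probes, whose median difference was 0.02, the Avpr1a probes had the 47th and 50th lowest difference.

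The probes of Avpr1a gave like profiles. The brighter exceeded the dimmer by 2.30 to 2.77 log2 units on the mutant arrays and by 2.49 to 2.68 on the control arrays. After each was centred on its own mean over the 16 arrays, the pair differed by a root mean square of 0.11 log2 units. Among the tested probes each was the closest profile to the other, ahead of the next closest at 0.26 from the brighter and 0.24 from the dimmer probe. These profiles hold the group difference for which the gene was chosen, so their closeness is set in part by that choice. Without background correction the mutant minus control difference was -2.14 for the brighter and -1.69 for the dimmer probe, so the likeness also depends on that step.

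The arrays lay on 2 slides of 8, and every source was present on both. Slide is a comparison that the choice of the gene did not use. The brighter probe averaged 11.62 on slide 2 and 11.53 on slide 1, a difference of 0.084 ± 0.065 (SD, n = 5 sources), and was higher on slide 2 in 5 of 5 sources. The dimmer probe averaged 9.05 and 9.00, a difference of 0.054 ± 0.035, also in 5 of 5 sources. The exact two-sided sign-flip permutation test gave p = 0.0625 for each probe, the smallest value that 5 sources allow, so neither could pass 0.05. Within slide 1 the mutant minus control difference was -2.30 and -2.20 for the brighter and the dimmer probe, and within slide 2 it was -2.18 and -2.15. The slide effect was thus far smaller than the distance between the groups on either slide.

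Of the other members of the vasopressin and oxytocin system, the ligand and receptor genes gave little signal in these arrays, whereas Avpi1 was well above background. The ligand Avp was detected on 1 of 7 mutant and 0 of 9 control arrays. Avpr1b, the receptor of the pituitary, and Avpr2, the receptor of the kidney collecting duct, were detected on none of the 16 arrays. At this signal over background no difference could be read for these 3 genes. Oxt, the oxytocin precursor, was detected on 6 of 7 mutant and 8 of 9 control arrays at low levels, 6.47 and 6.42 in the mutant sources and 6.50, 6.47 and 5.59 in the control sources (difference 0.26, SE 0.32, limma adjusted p = 0.815). Avpi1, named for its induction by vasopressin, was at 11.26 and 11.71 in the mutant sources and at 11.70 to 11.71 in the control sources (difference -0.22, SE 0.17, limma adjusted p = 0.692). Both overlapped between the groups, and Oxtr and Lnpep were not analysed here.

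The genes that carry the signal of a Gq-coupled receptor were examined next. In the limma fit over all probes, 0.02% of the 10013 tested genes passed an adjusted p of 0.05 as lower and 0.03% as higher in the mutant, and 0.0345% and 0.0207% of the 14504 probes did so. A gene is called separated low where both mutant sources lie under the lowest control source, and separated high where both lie over the highest. Of all tested genes 15.3% were separated low and 14.1% separated high. Of 60 tested genes in 7 lists, with Avpr1a set aside, 1 passed as lower and 0 as higher. At an unadjusted p below 0.05 the limma counts were 6 lower and 1 higher, where 7.34% of all tested genes were lower and 4.89% higher. Of the 60 genes 10 (16.7%) were separated low and 2 (3.33%) separated high, so the low share was close to that over all genes. These counts depend on there being a pair of mutant sources: without mutant source 1 they were 28 low and 18 high, and without mutant source 2 they were 28 low and 12 high. The median difference over the 60 genes was -0.11, against 0.00 over all tested genes.

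The unadjusted and the separated counts of the single lists below are to be read against the same shares. Of 15 tested Gq and phospholipase C effectors, 0 passed in either direction with limma and 1 had an unadjusted p below 0.05 (median difference -0.17). Gna14, an alpha subunit of the Gq class, was at 8.19 and 8.49 in the mutant sources and 9.09 to 9.19 in the control sources, a difference of -0.81 (SE 0.19, limma adjusted p = 0.261). Plcb3, a phospholipase C beta, differed by -0.32 (SE 0.14, limma adjusted p = 0.450) and was separated low. Prkce, a protein kinase C, differed by -0.35 with overlapping sources. It was above background on 4 of 7 mutant and 9 of 9 control arrays and differed by -0.13 without background correction. Genes of this step were thus present in the tissue, and none passed the threshold after adjustment.

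Among 9 genes of receptor desensitisation, 0 passed with limma and 1 had an unadjusted p below 0.05 (median difference 0.02). Arrb1, an arrestin that uncouples active receptors, was at 8.18 and 7.77 in the mutant sources and 8.53 to 8.74 in the control sources, a difference of -0.63 (SE 0.21, limma adjusted p = 0.354), and its other probe differed by -0.42. Grk6, a receptor kinase, and Rgs2, which speeds the turning off of Gq, differed by 0.39 and -0.44 with overlapping sources.

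Of 14 genes of calcium entry, calcineurin and NFAT, 0 passed with limma and 1 had an unadjusted p below 0.05 (median difference -0.04). Atp2a2, the calcium pump of the endoplasmic reticulum, was at 12.36 and 12.47 in the mutant sources and 11.74 to 11.87 in the control sources, a difference of 0.60 (SE 0.13, limma adjusted p = 0.256), and its other probe differed by 0.34. Ppp3ca, the catalytic subunit of calcineurin, differed by -0.38 (SE 0.18, limma adjusted p = 0.489) and was separated low. Nfatc4, a transcription factor that calcineurin activates, differed by -1.11 (SE 0.65), at 8.93 and 7.86 in the mutant sources and 8.43 to 10.46 in the control sources, which overlap.

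Other receptors that couple to Gq served as a comparison for Avpr1a. Of 13 tested, 0 passed with limma and 3 had an unadjusted p below 0.05 (median difference -0.32, from -0.92 to 0.35). Separated low were 4 and separated high 0, where 15.3% and 14.1% of all tested genes were. Ednrb, an endothelin receptor, was at 12.41 and 11.85 in the mutant sources and 12.79 to 13.32 in the control sources, a difference of -0.92 (SE 0.24, limma adjusted p = 0.287). Its other probes differed by -0.90 and -0.16. Cysltr1, a leukotriene receptor, and Chrm3, a muscarinic acetylcholine receptor, differed by -0.84 and -0.72 (limma adjusted p = 0.394 and 0.386). Chrm3, 1 of the 4 separated low, was above background on 2 of 7 mutant and 9 of 9 control arrays. It thus passed the filter through the control arrays. None of these 13 receptors differed by as much as either Avpr1a probe, a comparison that the choice of Avpr1a for its size fixes in part.

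Of 14 further peptide hormone receptors on the array, 4 could be tested and 1 passed. Mc5r, a melanocortin receptor known from sebaceous glands, fell. It was at 5.78 and 5.72 in the mutant sources and 8.50 to 8.99 in the control sources, a difference of -2.95 (SE 0.22, limma adjusted p = 0.0470), and was above background on 3 of 7 mutant and 9 of 9 control arrays. Its mutant level is thus near the background, and the difference was -1.61 on signal without background correction. The call was lost there (adjusted p = 0.107) and when any 1 of the 5 sources was left out (adjusted p from 0.0940 to 0.531). Pth1r, the parathyroid hormone receptor, differed by -1.21 (SE 0.53) and Npy1r, a neuropeptide Y receptor, by -0.36, both with overlapping sources. Pth1r was above background on 3 of 7 mutant and 9 of 9 control arrays and passed the filter through the control arrays. Its other probes differed by -0.86 and -0.63. Aquaporins are water channels, of which vasopressin controls chiefly Aqp2 in the kidney. Among 3 other aquaporins that were tested, 0 passed with limma and 0 had an unadjusted p below 0.05. Aqp3, an aquaporin of keratinocytes, was at 10.59 and 12.83 in the mutant sources and 10.89 to 11.89 in the control sources, a difference of 0.24 (SE 0.69). Aqp1 differed by -0.76 and Aqp9 by 1.10, with overlapping sources.

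**Figure D2:**
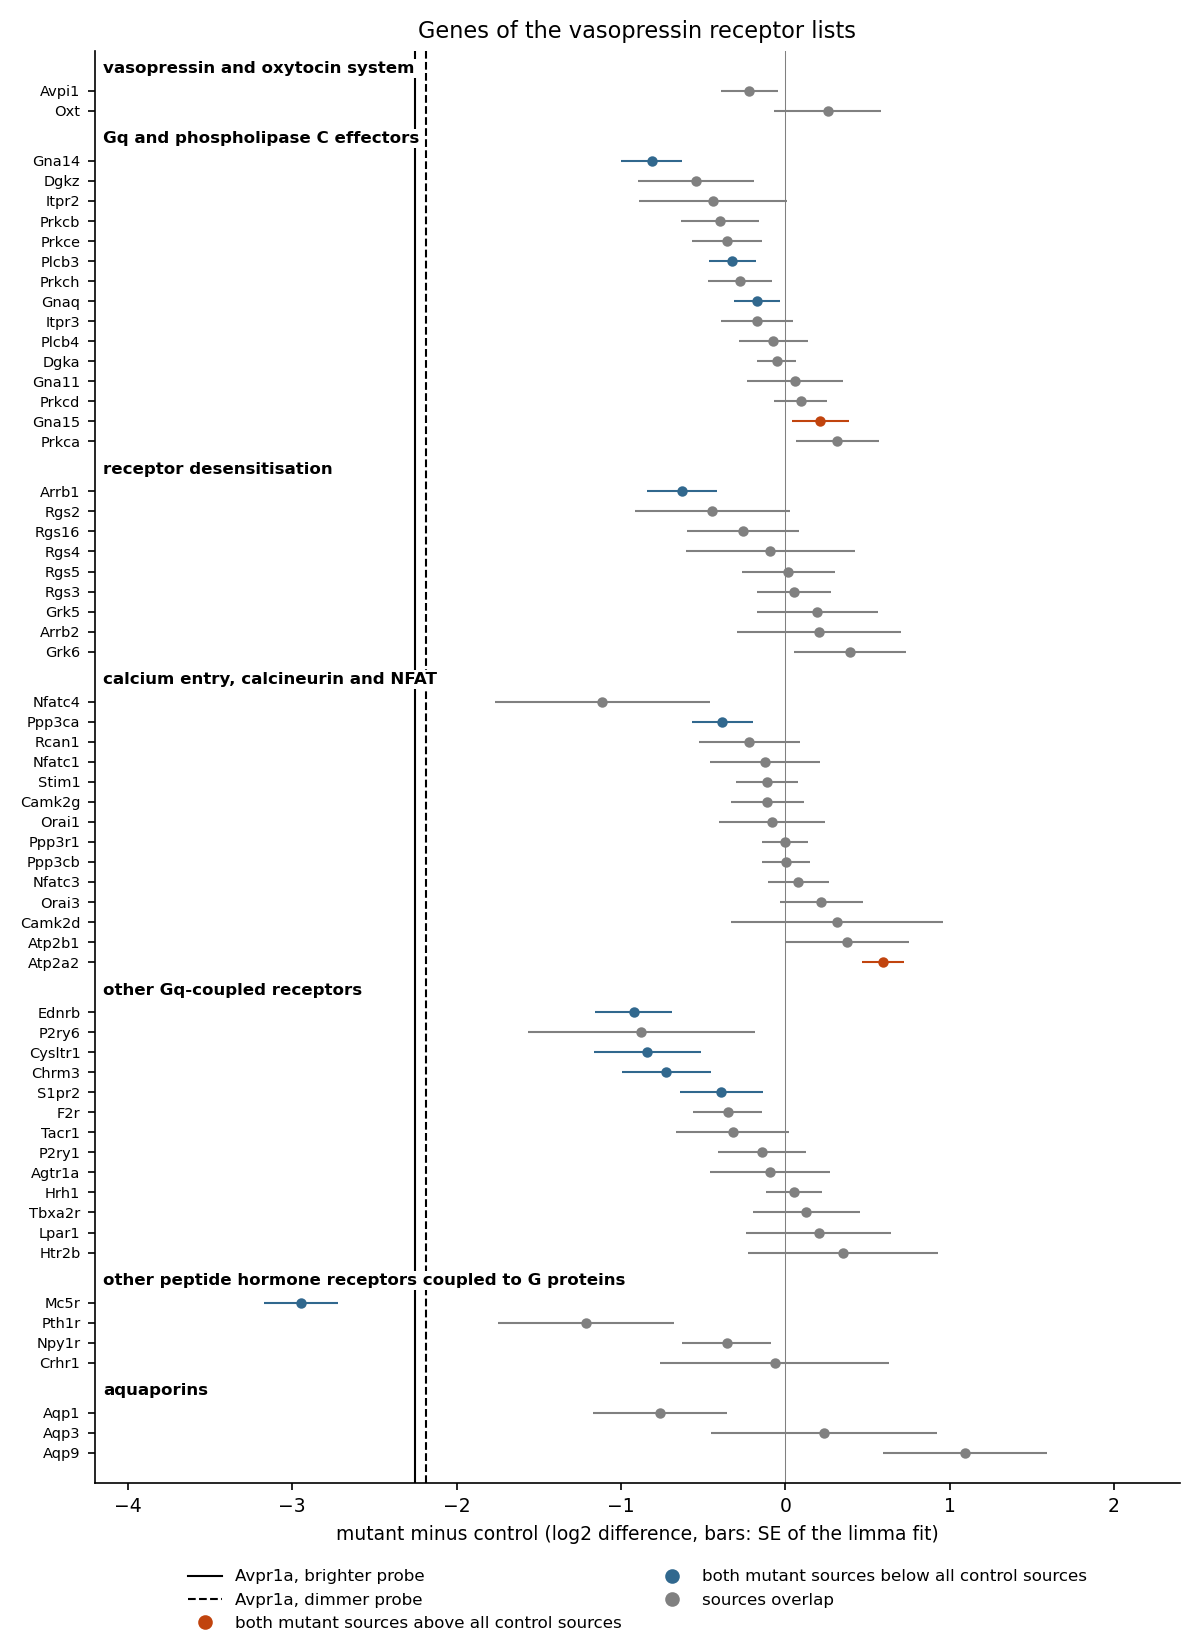
Log2 difference, mutant minus control, of the tested genes of 7 lists with the SE of the limma fit. Red points are separated high, blue points separated low, grey points overlap, and the vertical lines mark the Avpr1a probes at -2.26 and -2.18. Mc5r at -2.95, with a mutant level near background, is the 1 gene of the 60 below these lines; without background correction it is at -1.61 and the Avpr1a probes at -2.14 and -1.69.

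The genes whose profile over the 16 arrays was closest to Avpr1a were then listed, by the root mean square difference between centred log2 profiles. They are close to Avpr1a by construction, and their differences between the groups follow from that choice. The 10 closest named genes were Ldoc1, Acsm3, Gbp2b, Lox, Kazald1, Mettl7b, Pparg, Prdx2, Upk1b and Scd1, at distances of 0.26 to 0.37, against a median of 1.15 over all tested probes. One unnamed probe lay among them.

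For Ldoc1, Acsm3, Gbp2b and Kazald1 the mutant level is only a bound, because their probes were above background on 0 of 7 mutant and 9 of 9 control arrays. With the mutant level set no lower than the dimmest detected probe of each array, Ldoc1 was at least 3.05-fold lower, Acsm3 at least 2.62-fold, Gbp2b at least 2.38-fold and Kazald1 at least 2.20-fold lower in the mutant. Upk1b, a uroplakin, was above background on 2 of 7 mutant arrays and Prdx2, a peroxiredoxin, on 1 of 7. Their mutant levels lie near the background, and the differences of -2.64 for Upk1b and -1.70 for Prdx2 were -1.40 and -0.75 without background correction. The other Prdx2 probes differed by -1.47 and -0.01.

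The remaining 4 genes were above background on all 16 arrays. Lox, which cross-links collagen and elastin, was at 9.42 and 9.00 in the mutant sources and 10.95 to 11.12 in the control sources, a difference of -1.81. Pparg, a regulator of lipid genes in sebocytes and adipocytes, was at 9.69 and 9.82 in the mutant sources and 11.20 to 11.94 in the control sources, a difference of -1.80, and its other probe differed by -1.55. Scd1, the stearoyl-CoA desaturase, was at 12.51 and 12.69 in the mutant sources and 13.97 to 14.66 in the control sources, a difference of -1.78. Mettl7b, which encodes a methyltransferase-like protein, differed by -1.92. In control sources 1, 2 and 3 Pparg stood at 11.20, 11.52 and 11.94 and Scd1 at 13.97, 14.51 and 14.66, while the brighter Avpr1a probe stood at 12.49, 12.50 and 12.44.

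**Figure D3:**
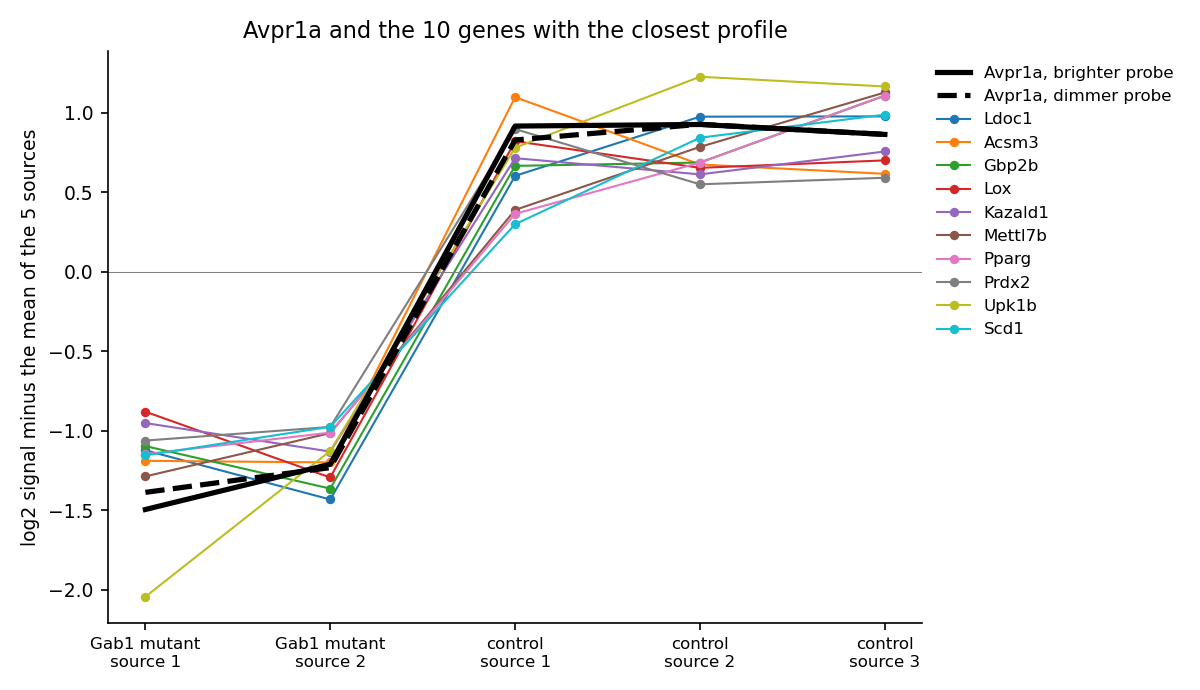
Log2 signal minus the mean of the 5 sources, by source, for the Avpr1a probes (black) and the 10 genes with the closest profile over the 16 arrays. Lines join the values of 1 probe and give no order of sources. All genes lie below 0 in the mutant sources and above 0 in the control sources. Within the control all 10 genes spread more widely than either Avpr1a probe, with Pparg, Scd1 and Mettl7b the widest.

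Markers of several skin cell types had lower mutant values, as Avpr1a did, and their part in the Avpr1a difference was not tested. All 7 tested sebocyte markers were separated low, against 15.3% of all tested genes, with a median difference of -2.04, and their mean signal was 8.98 in each mutant source and 10.64, 11.25 and 11.55 in the control sources. Mc5r, Elovl3 and Awat2 were above background on only 3 or 4 of the 7 mutant arrays and passed the filter through the control arrays. The count, the mutant mean and the median difference of this list are thus set in part by the filter and by background. Scd1, Cidea, Pparg and Mgst1 were above background on every array. Across the control sources the sebocyte mean spanned 0.91 log2 units, against 0.06 for the brighter and 0.10 for the dimmer Avpr1a probe. Mc5r, Pparg and Scd1, given above, are among these 7 markers. Scd1 and Mgst1, a microsomal glutathione transferase (difference -1.07), are the sebocyte markers of highest signal.

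The endothelial markers had a median difference of -0.97 with 4 of 6 separated low, where 15.3% of all tested genes were. Esam, a junction protein, differed by -1.18 and Emcn, an endothelial sialomucin, by -0.57 with overlapping sources. Their mean was 10.51 and 10.77 in the mutant sources and spanned 1.10 log2 units across the control sources. All 5 T cell markers were separated low, with means of 7.62 and 5.91 in the mutant sources and 8.46 to 10.21 in the control sources, and Cd3g and Ctsw differed by -2.79 and -2.53. Of these 5 markers 4 were below background on some mutant arrays and passed the filter through the control arrays, which in part sets the count. Of 5 dermal papilla markers 2 were separated low, and Hey1 and Corin differed by -1.32 and -1.82, Corin with overlapping sources. Of 4 adipocyte markers 3 were separated low, and Lpl and Adig differed by -0.99 and -1.67. Cidec, the other of these 3, was above background on 0 of 7 mutant and 7 of 9 control arrays. It passed the filter through the control arrays, so its mutant level is only a bound. Adipoq, with overlapping sources, was above background on 4 of 7 mutant and 5 of 9 control arrays. These 4 lists spanned 0.85 to 1.90 log2 units across the control sources, wider than either Avpr1a probe. The dermal fibroblast, eccrine and apocrine gland, basal keratinocyte, and smooth muscle and mural lists spanned 0.14 to 0.26. Small control spread favours the choice of a gene by its difference, so these spans are a description. The part of any cell type was not tested.

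The basal keratinocyte list and the smooth muscle and mural list had no marker separated low. Over all tested genes 15.3% were separated low and 14.1% high, so in lists this short a count of 0 is near that share. Vascular smooth muscle is a classical site of the V1a receptor, and this list does not tell it from other smooth muscle. Of 6 basal keratinocyte markers 0 were separated low and 1 high (median difference -0.08), and their mean was 13.73 and 14.01 in the mutant sources and 13.86 to 14.03 in the control sources. Of 7 smooth muscle and mural markers 0 were separated low and 2 high (median difference 0.12), with means of 10.28 and 9.67 in the mutant sources and 9.54 to 9.80 in the control sources. No gene of these 7 marker lists other than Mc5r passed the limma threshold.

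**Figure D4:**
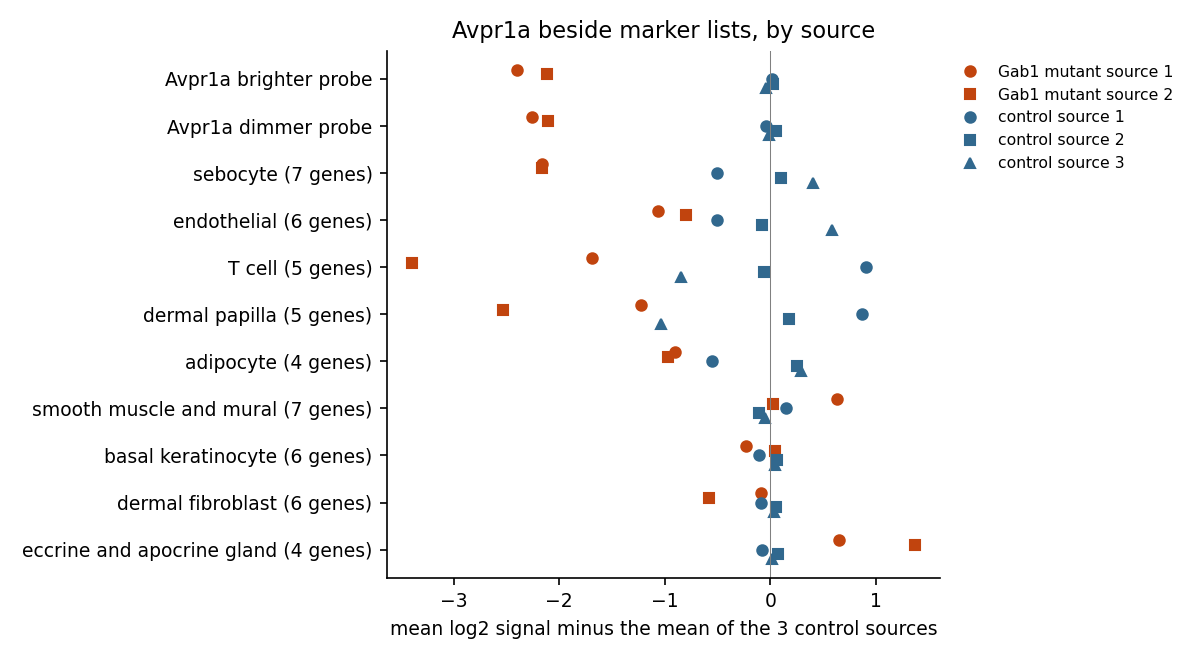
Mean log2 signal of marker lists and of the Avpr1a probes in each source, minus the mean of the 3 control sources. Red symbols are mutant and blue symbols control sources. The control sources lie within 0.06 and 0.10 for Avpr1a, and spread by 0.14 for the dermal fibroblast, 0.91 for the sebocyte and 1.76 for the T cell list.

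The nearest tested genes on chromosome 10 did not differ by as much as Avpr1a. The 3 nearest tested genes on either side in the RefSeq table for GRCm38.p6 were Tbk1, BC048403 and Rxylt1 before it and Ppm1h, Mon2 and Lrig3 after it, with 4 to 31 other annotated genes between them and Avpr1a. Their differences lay between -0.16 and 0.27, and 0 of 6 passed with limma or had an unadjusted p below 0.05. Rxylt1, a glycosyltransferase, was the 1 of the 6 that was separated low, with a difference of -0.09 (limma adjusted p = 0.852). Over all tested genes 15.3% were separated low, and 7.34% had an unadjusted limma p below 0.05 as lower and 4.89% as higher. With 0.02% and 0.03% passing after adjustment, the counts among these 6 genes are near the shares over all genes. Ppm1h, the nearest tested gene after Avpr1a with 5 genes between, is a phosphatase and was above background on 3 of 7 mutant and 5 of 9 control arrays, with a difference of 0.07.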

How the data were processed

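Per the submitters' processing notes, the authors exported probe values from GenomeStudio, with no version given. The deposited raw table holds a summarised probe intensity and, per the file headers, a detection p-value for each array. A second deposited table holds the authors' normalized intensity, which differed from the quantile-normalized raw intensity by a median of 0.00648% and was used as an alternative.

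From the raw table, limma 3.58.1 in R 4.3.3 gave background-corrected (neqc, offset 16, negative controls inferred from detection p), quantile-normalized log2 values. Tests took the 14504 of 25697 probes (10013 genes) detected at p below 0.05 on 7 or more of the 16 arrays. Symbols came from the platform annotation, updated through RefSeq gene identifiers; 23978 probes had 1 symbol and 1719 none. Arrays of a group that correlated above 0.99 were averaged to sources, and limma (lmFit, eBayes with trend, Benjamini-Hochberg adjustment) was fitted to 2 mutant and 3 control sources and checked on simulated data. Statements per gene use the tested probe of highest mean. The precision is limited by the number of sources.

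The gene, the averaging by source and the gene lists were chosen with earlier results of these data known. Named were Gab1, all measured vasopressin and oxytocin genes, the 3 genes of smallest p in each other pathway list, the 10 closest profiles, 3 neighbours on each side and, the 2 markers of highest mean in a list, given for lists described in detail; other genes were added after their values were seen. Alternatives varied the background correction, scaling, filter, value table, unit of replication, slide, title numbers as a block, and left out each source.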

Additional observations from a re-analysis of the deposited data

How the results depend on the processing

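The Avpr1a difference kept its direction under all 18 alternatives. The groups overlapped on no array before or after normalization, so leaving out a slide or a source could not reverse it. The direction is thus a description and no test. For the brighter probe the difference was -2.40 to -2.11 when 1 source was left out. For the dimmer probe it was -2.02 at a neqc offset of 50, -1.69 both on uncorrected signal and in the deposited normalized table, and -2.26 to -2.11 when 1 source was left out. The slide difference of the brighter probe was 0.065 to 0.098 in its 10 alternatives, which were not run for the dimmer probe.

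The count of probes past the limma threshold, 8 of 14504, did not hold. It was 0 in the deposited normalized table, on uncorrected signal, at a neqc offset of 50, after scaling to the 75th percentile, on probes detected on all 16 arrays, within slide 1, within slide 2 and when any 1 source was left out (0 to 0). It was 1 with cyclic loess, 4 without a filter, 331 with slide as a block, 883 with source entered as a random block and 4914 with the 16 arrays as separate samples. For the pathway genes it was 0 in place of 1 under the settings that gave 0 probes and also with cyclic loess and without a filter, and 3, 4 and 19 under the last 3. Of these genes 60 were tested, but 89 without a filter and 51 with detection on all 16 arrays, a filter that leaves Mc5r untested. With the title numbers of the arrays as a replicate block the counts were 3396 probes and 12 pathway genes and the Avpr1a difference -2.24. Arrays sharing a number correlated between -0.39 and 0.42 in their deviations, so the numbers do not pair the arrays. The cause of these changes was not tested.

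Of 885 values of 50 named genes, 15 changed direction, all of genes that did not pass. Within slide 2 Oxt was -0.063 and Ppm1h -0.27, and Lrig3 was -0.032 with the 16 arrays as separate samples and -0.061 with the replicate block. Leaving out 1 source gave ranges of -0.040 to 0.41 for Oxt, -0.44 to 0.0045 for Avpi1, -0.14 to 0.92 for Grk6, -0.90 to 0.0097 for Rgs2, -0.88 to 1.35 for Aqp3, -0.062 to 0.47 for Tbk1, -0.0037 to 0.12 for Ppm1h, -0.46 to 0.13 for Mon2 and -0.31 to 0.34 for Lrig3. For 21 of the 50 genes leaving out 1 source moved the difference by over 1.5 times, among them Ppp3ca (-0.65 to -0.12), Nfatc4 (-1.65 to -0.58), Pth1r (-1.88 to -0.54) and Corin (-2.95 to -0.69). Mc5r passed in 4 of 17 alternatives, those that enter arrays, or the slides of a source, one by one, its adjusted p ranged from 1.81e-11 to 0.531, and its difference from -3.04 to -1.61. Genes near background, such as Oxt and Chrm3, are limited by signal.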

Other observations

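Some markers had higher mutant values, unlike Avpr1a. Of 4 tested genes in the eccrine and apocrine gland list, all keratins, 3 were separated high, against 14.1% of all tested genes. Each mutant source of these 3 lay over the highest control source. Aqp5, the untested gene of this list, was above background on 1 of 7 mutant and 0 of 9 control arrays. The keratins are not specific to glands, so no change in glands can be read from them. Krt7, a keratin of simple epithelia, was at 7.89 and 8.56 in the mutant sources and 6.36 to 6.83 in the control sources, a difference of 1.67 (SE 0.28, limma adjusted p = 0.207), and Krt8, another such keratin, at 10.32 and 11.33 in the mutant sources and 8.73 to 9.36 in the control sources, a difference of 1.71 (SE 0.37, limma adjusted p = 0.256). Acta2, the smooth muscle actin, differed by 0.99 (SE 0.22, limma adjusted p = 0.257), while its further probes differed by 1.68, 1.35 and 1.56. Tagln, an actin-binding protein of smooth muscle, differed by 1.08 (SE 0.25, limma adjusted p = 0.259). None of these passed the threshold over all probes.

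Of the 11 remaining marker lists 9 had a median difference below 0. All tested melanocyte (-2.26 to -0.41), mast cell (-0.63 to -0.61) and erythroid markers (-0.33 to -0.31) had lower mutant means, mostly with overlapping sources. Separated low, with each mutant source under the lowest control source, were 0 of 5 suprabasal keratinocyte, 2 of 6 hair matrix and shaft, 1 of 5 outer root sheath and bulge, 2 of 6 dermal fibroblast, 0 of 4 lymphatic endothelial, 1 of 4 melanocyte, 0 of 2 Schwann cell and nerve, 0 of 3 mast cell, 0 of 3 macrophage and Langerhans, 0 of 2 skeletal muscle and 0 of 3 erythroid markers. Separated high were 2 of the outer root sheath and bulge and 1 of the dermal fibroblast markers. Over all tested genes 15.3% were separated low and 14.1% high, so in lists this short the counts say little about a cell type. With limma, 0 markers of these lists passed.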
